A study of Mus musculus with 10 samples.

Results

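The enzymes and regulators that make cholesterol and fatty acids were examined through 35 genes, picked by symbol from the 48897 rows of each of 2 expression tables. All 35 were found and tested in both tables. They comprise 8 genes of the mevalonate and isoprenoid steps, 11 of the squalene and late sterol steps, 10 of fatty acid synthesis, elongation and desaturation, and 6 regulators and carriers of the sterol response. The first table holds RPKM values (reads per kilobase of gene and per 1000000 mapped reads of the library) from mouse prostate epithelium. The second holds TPM values (reads per base of gene, brought to a common total) from Myc-CaP, a prostate cancer cell line made from a c-Myc transgenic mouse. The epithelium came from 3-month-old C57BL/6 mice as a sorted EpCAM+; CD45- fraction, with 3 control libraries (A, B and C) and 3 Arid1aPC-/- libraries (Arid1a KO A, B and C). Myc-CaP cells, from the FVB strain, gave 2 libraries with an empty vector (EV) and 2 with Arid1a KO. Arid1a encodes a DNA-binding subunit of the SWI/SNF chromatin remodelling complex.

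The control mice are not wild type, and the Arid1a KO mice share their background. Arid1a is deleted by a Cre driven from the Probasin promoter, which is active in prostate epithelium, so cells that did not use that promoter keep the gene. Whether the 2 Myc-CaP Arid1a KO libraries are separate lines, clones or repeat cultures is not given in the sources used here. The study also grew Myc-CaP cells as tumours in mice, and all samples share a single text on culture and a single text on sorting, so growth in a dish is read from the sample source alone. P-values therefore measure the spread between these libraries, which for Myc-CaP may be technical.

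Cholesterol is built from acetyl-CoA through mevalonate and farnesyl diphosphate, which squalene synthase condenses to squalene. Squalene is then oxidised, cyclised to lanosterol and trimmed to cholesterol. Fatty acids are built from the same acetyl-CoA, released from citrate by ATP citrate lyase, carboxylated by acetyl-CoA carboxylase and polymerised by fatty acid synthase, then elongated and desaturated. Transcription of both arms is driven by the SREBP factors, which Scap escorts from the endoplasmic reticulum when sterols are low and Insig proteins hold back when sterols are high. SREBP-2 mainly drives the sterol arm and SREBP-1c the fatty acid arm, and androgen signalling raises both in prostate epithelium.

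SREBPs bind a sterol regulatory element, and the nearby factors NF-Y and Sp1 bind CCAAT and GC boxes, so the 250 bases before the RefSeq start of each gene (GRCm38.p6) were searched on both strands for TCACNCCA, CCAAT and GGGCGG. A promoter was matched for 28 of the 35 genes. A gene was counted where any of its promoters held a match. The sterol element core TCACNCCA occurred in 3 of them (10.7%), Hmgcs1, Msmo1 and Srebf2, against 4.2% of all 27025 genes searched. CCAAT occurred in 22 (78.6%) against 37.5% of all genes, and GGGCGG in 23 (82.1%) against 35.4%. Genes expressed in the epithelium hold GGGCGG more often than genes at large, at 61.0% of the 10898 tested genes with a promoter, and CCAAT at 39.4%. TCACNCCA can share its last letters with CCAAT, but did so in none of these 3 promoters. These are matches of letters and not measured binding. The 3 promoters with the sterol element core are printed because they belong to a mevalonate enzyme, a late sterol enzyme and the gene for SREBP-2 itself, and Cyp51 because it was called higher in both tables and has no match to that core in this window. The windows are Hmgcs1 chr13:119690101-119690350 (plus strand), Msmo1 chr8:64733579-64733828 (minus strand), Srebf2 chr15:82147019-82147268 (plus strand) and Cyp51 chr5:4104698-4104947 (minus strand). Capitals mark TCACNCCA and CCAAT, the latter written ATTGG where it lies on the opposite strand. The core starts 137 bases before the RefSeq start in Hmgcs1, 177 in Msmo1 and 162 in Srebf2. In another annotation (GENCODE M21), Msmo1 (to 64733792), Srebf2 (from 82147181) and Cyp51 (to 4104746) reach into their windows. By that annotation the core of Msmo1 lies inside the gene, so these distances hold for the RefSeq start alone.
Hmgcs1: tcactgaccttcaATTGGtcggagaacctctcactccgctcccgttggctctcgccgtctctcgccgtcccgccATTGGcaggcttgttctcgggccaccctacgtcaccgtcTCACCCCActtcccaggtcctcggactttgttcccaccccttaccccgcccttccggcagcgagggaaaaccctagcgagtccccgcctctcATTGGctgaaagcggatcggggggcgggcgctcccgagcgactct
Msmo1: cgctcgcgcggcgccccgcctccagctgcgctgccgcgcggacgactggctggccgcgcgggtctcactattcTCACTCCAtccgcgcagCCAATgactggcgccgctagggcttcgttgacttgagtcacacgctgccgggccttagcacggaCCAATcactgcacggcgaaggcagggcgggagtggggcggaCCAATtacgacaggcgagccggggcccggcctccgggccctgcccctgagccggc
Srebf2: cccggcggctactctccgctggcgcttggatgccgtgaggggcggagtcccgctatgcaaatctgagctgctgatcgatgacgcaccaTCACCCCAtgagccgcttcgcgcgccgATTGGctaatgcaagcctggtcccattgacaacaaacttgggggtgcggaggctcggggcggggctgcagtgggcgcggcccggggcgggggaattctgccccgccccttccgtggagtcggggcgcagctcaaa
Cyp51: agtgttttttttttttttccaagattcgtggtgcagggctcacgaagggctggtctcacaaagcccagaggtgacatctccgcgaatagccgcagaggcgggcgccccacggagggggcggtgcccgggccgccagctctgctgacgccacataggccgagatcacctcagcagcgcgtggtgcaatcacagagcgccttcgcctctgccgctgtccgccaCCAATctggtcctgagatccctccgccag

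Arid1a itself measured 25.4 ± 3.13 RPKM in the control epithelium and 30.2 ± 1.23 RPKM in the libraries labelled Arid1a KO (SD, n = 3; limma adjusted p = 0.0540), so its transcript level does not bear out the epithelium label. A single value per gene cannot show the loss of an exon. In Myc-CaP it measured 60.7 ± 0.355 TPM with EV and 39.9 ± 0.581 TPM after KO (SD, n = 2; adjusted p = 0.0102). Estimated depth in the epithelium ran from 28.8 to 36.3 in units of 1000000 reads, and at that depth the least covered of the 35 genes, Hsd17b7, rested on at least 232 estimated reads in a library. TPM keeps no absolute depth. Markers of other cell types differed between the epithelium groups, although the sort excluded CD45+ cells. All 6 seminal vesicle secretory genes were lower in the Arid1a KO libraries, summing to 18306 to 20706 RPKM in the control libraries and 623 to 1573 RPKM in the Arid1a KO libraries. All 6 macrophage markers were higher (1222 to 1464 RPKM in the control libraries and 1815 to 2146 RPKM in the Arid1a KO libraries), as were 4 of 5 B cell, 3 of 6 neutrophil and 2 of 5 T cell markers, with none lower in those lists, where 27.5% of all genes tested were called higher and 29.6% lower. Of the epithelial markers, 3 of 6 were lower, among them Epcam, with a summed level of 4599 to 6109 RPKM in the control libraries and 3875 to 4262 RPKM in the Arid1a KO libraries, and 3 of 6 fibroblast markers were lower. In these bulk samples, fewer cells of a type and less RNA per cell cannot be told apart. The part of these markers in the results on lipid genes was not tested. In Myc-CaP, markers of immune cells and seminal vesicle were at or near 0, apart from Cd68 at 0.823 to 1.90 TPM. No fibroblast marker was called, but Col1a1 ranged from 0.211 to 19.4 TPM between the EV libraries and from 0.347 to 7.45 TPM between the KO libraries. Fabp4 measured 166 to 169 TPM with EV and 95.3 to 107 TPM after KO (limma adjusted p = 0.0115). The other adipocyte markers were at or near 0. The epithelial defining markers Epcam and Cdh1 were also at most 0.128 and 0.386 TPM in any library. Their levels do not bear out an epithelial state of these cells, and they cannot show the origin of the line. The 6 epithelial markers summed to 0.940 to 1.48 TPM in the EV libraries and 44.7 to 44.8 TPM in the Arid1a KO libraries, the rise lying mostly in Krt8.

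Across the 35 genes the epithelium showed changes in both directions, whereas the Myc-CaP changes were mostly upward. In the epithelium, 12 genes rose, 8 fell and 15 did not pass the test (limma on log2(RPKM + 1), Benjamini-Hochberg adjusted p under 0.05). That is 57.1% of the members, and 57.1% of all 16275 genes tested were called, so the share is that of the background. By direction, 27.5% of all genes rose and 29.6% fell. The members' log2 fold changes ran from -0.99 to 0.67 with a median of 0.03, against -0.03 for all genes tested, and 18 of 35 were above 0 (51.4%, against 47.7%). Every KO library lay above every control library for 15 members (42.9%, against 32.4% of all genes) and below for 11 (31.4%, against 34.4%), so 74.3% were separated against 66.7%. With libraries rescaled to the same sum of values, the median of all genes moved to 0.11, with 6046 called higher and 3277 lower against 4471 and 4823 as reported, and 17 members were then called higher and 6 lower. Without Arid1a KO library B, 7 members were called higher. On log2(RPKM + 1), only 2 of the rises (Idi1 and Hsd17b7) and 2 of the falls (Scd1 and Fads2) reached 1.5-fold. On that scale 11.6% of all genes did so upward and 12.9% downward. By the ratio of mean RPKM, 0.652, the fall of Acss2 also passed 1.5-fold. In Myc-CaP, 6 genes rose (Pmvk, Cyp51, Msmo1, Dhcr7, Scd1 and Scd2), none fell and 29 did not pass the test, where 4.54% of all 13974 genes tested rose and 1.89% fell. At an unadjusted p under 0.05, 18 of the 35 members passed, all of them higher in the KO, against 3085 of all 13974 genes in either direction. The members' median was 0.25 in Myc-CaP against -0.01 for all genes tested, and 29 of the 35 values were above 0 (82.9%, against 47.4% of all genes). Both KO libraries lay above both EV libraries for 25 members (71.4%, against 24.9% of all genes) and below them for 2 (5.71%, against 26.6%), so 77.1% were separated against 51.5%. Cyp51 and Scd1 reached 1.5-fold among the calls, as 3.11% of all genes did upward. By the study's thresholds, an unadjusted p under 0.05 and 1.5-fold, here on log2(TPM + 1), 3 were higher (4.62% of all genes) and none lower (1.66%). Hsd17b7 was not among them on that scale, but its ratio of mean TPM was 1.503.

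**Figure D1:**
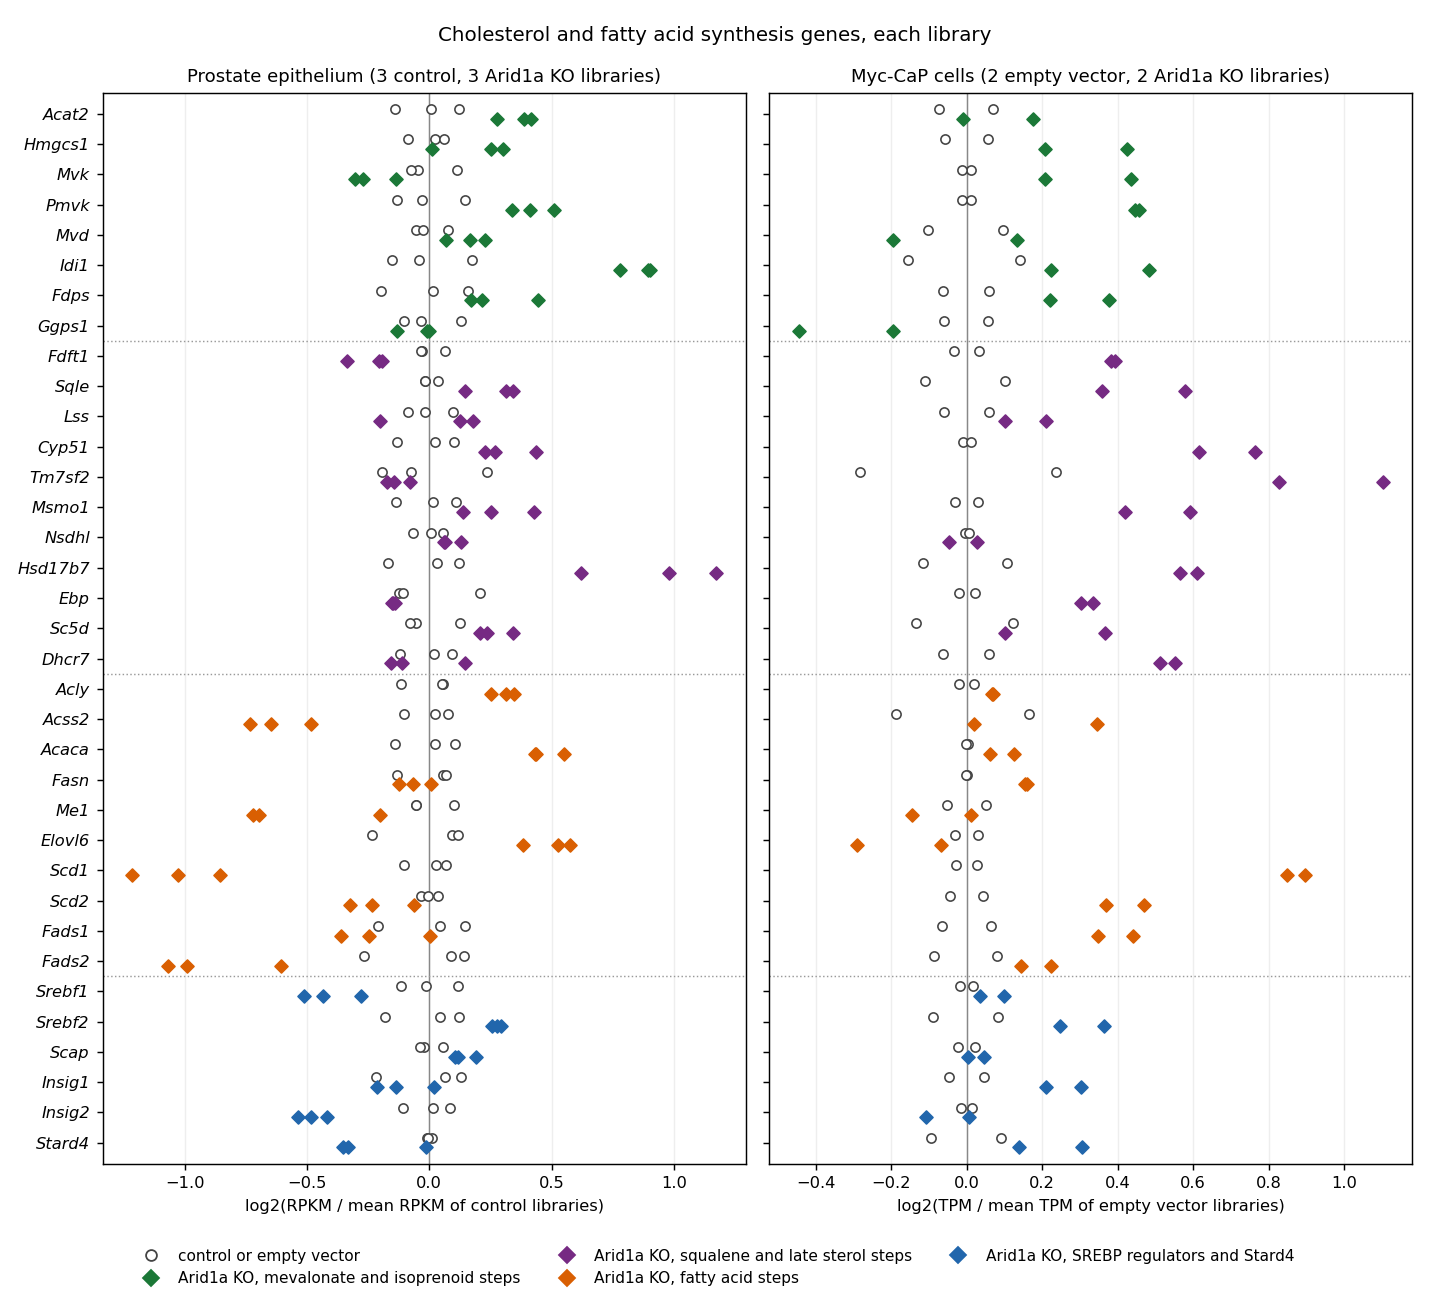
Each point is 1 library, placed on the horizontal axis at the log2 ratio of its value to the mean of the control (RPKM, left) or EV (TPM, right) libraries, with open circles for control or EV and filled diamonds for Arid1a KO, coloured by step. In Myc-CaP the diamonds of 25 genes lie wholly to the right of the circles, while in the epithelium 15 genes lie to the right and 11 to the left.

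The mevalonate and isoprenoid steps convert acetyl-CoA to the 5-carbon and longer isoprenoid units. In the epithelium, 3 of the 8 genes rose (Acat2, Pmvk and Idi1), Mvk fell and 4 did not pass the test, with a median log2 fold change of 0.23. That is 50% called, against 57.1% of all genes tested. The summed level was 114 to 130.2 RPKM in the control libraries and 139.8 to 153 RPKM in the Arid1a KO libraries. The median was 0.40 with libraries rescaled to the same sum and 0.35 with the length trend removed. Idi1 (chromosome 13, 8885501 to 8892451 on GRCm38, GENCODE M21), the isomerase that interconverts isopentenyl and dimethylallyl diphosphate, measured 2.41, 2.61 and 3.03 RPKM in the controls (A to C) and 4.61, 5.00 and 5.01 RPKM in the Arid1a KO (A to C). Every KO library lay above every control library (log2 fold change 0.67 ± 0.09 (SE), limma adjusted p = 5.70e-04), and the rise was kept under all 14 alternatives that could be run for it with the call still made at an adjusted p under 0.05. Pmvk (chromosome 3, 89454541 to 89469013), phosphomevalonate kinase, measured 12.1, 14.6 and 12.9 RPKM in the controls (A to C) and 17.6, 18.8 and 16.7 RPKM in the Arid1a KO (A to C), without overlap (log2 fold change 0.40 ± 0.08 (SE), limma adjusted p = 0.00530). Acat2, the cytosolic thiolase that starts the pathway, measured 8.60, 10.3 and 9.55 against 12.7, 12.4 and 11.5 RPKM in the control and KO libraries (log2 fold change 0.33 ± 0.08 (SE), limma adjusted p = 0.00942). Mvk, the kinase that acts 1 step before Pmvk, went the other way, at 11.2, 12.5 and 11.0 against 9.41, 10.6 and 9.61 RPKM (log2 fold change -0.21 ± 0.08 (SE), limma adjusted p = 0.0436). The groups did not overlap for Mvk, but its call was lost under 10 of 15 alternatives, and its log2 value shrank to -0.05 with libraries rescaled to the same sum. Hmgcs1, the cytosolic synthase that makes HMG-CoA and whose promoter is printed above, had a log2 fold change of 0.18 ± 0.09 (SE; adjusted p = 0.112), Mvd, the decarboxylase, 0.15, Fdps, which makes farnesyl diphosphate, 0.28, and Ggps1, which extends it to geranylgeranyl diphosphate, -0.03. None of these 4 passed the test. Fdps shares exon sequence on the same strand with Gm43738, so reads there could be lost or assigned to either gene.

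In Myc-CaP, Pmvk was the mevalonate gene that passed the test. It measured 50.5 and 49.6 TPM in EV libraries 1 and 2 and 68.2 and 68.7 TPM in Arid1a KO libraries 1 and 2, with both KO libraries above both EV libraries (log2 fold change 0.44 ± 0.06 (SE), limma adjusted p = 0.0190). The other 7 genes did not pass, with log2 fold changes from -0.29 (Ggps1) to 0.35 (Idi1), and the step's median was 0.30. The KO libraries lay above the EV libraries also for Hmgcs1 (29.2 and 31.6 against 35.1 and 40.8 TPM), Mvk (28.1 and 27.6 against 37.7 and 32.2 TPM), Idi1 (26.7 and 32.8 against 34.7 and 41.6 TPM) and Fdps (105 and 96.3 against 131 and 117 TPM), and below them for Ggps1 (9.58 and 10.4 against 7.33 and 8.71 TPM), the branch enzyme that leads away from sterols. The summed level of the step was 321 to 329 TPM in the EV libraries and 386 to 393 TPM in the Arid1a KO libraries. The groups thus do not overlap in the sum, although 1 of 8 genes was called (12.5%, against 4.54% of all genes called higher). Of all genes tested, 24.9% were separated upward and 26.6% downward.

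The squalene and late sterol steps turn farnesyl diphosphate into cholesterol. In the epithelium, 5 of the 11 genes rose (Sqle, Cyp51, Msmo1, Hsd17b7 and Sc5d), Fdft1 fell and 5 did not pass the test, with a median of 0.08. That is 54.5% called, against 57.1% of all genes tested. The summed level was 115 to 124.5 RPKM in the control libraries and 123.6 to 135 RPKM in the Arid1a KO libraries, so the groups overlapped in the sum. The median was 0.24 with libraries rescaled to the same sum and 0.20 with the length trend removed. The largest rise was in Hsd17b7 (chromosome 1, 169949535 to 169969241), the 3-keto reductase of C4 demethylation, at 1.55, 1.27 and 1.46 RPKM in the controls (A to C) and 2.19, 3.22 and 2.82 RPKM in the Arid1a KO (A to C), without overlap (log2 fold change 0.62 ± 0.12 (SE), limma adjusted p = 0.00341). It was also the lowest of the 11 genes per length in the control libraries. Cyp51 (chromosome 5, 4081145 to 4104746), the lanosterol 14-alpha demethylase, measured 14.3, 15.9 and 16.8 RPKM in the controls (A to C) and 18.3, 21.2 and 18.8 RPKM in the Arid1a KO (A to C) (log2 fold change 0.30 ± 0.08 (SE), limma adjusted p = 0.0184). Msmo1 (chromosome 8, 64718139 to 64733792), the C4 methyl oxidase that acts after it, measured 17.1, 20.3 and 19.0 RPKM in the controls (A to C) and 20.7, 25.3 and 22.4 RPKM in the Arid1a KO (A to C) (log2 fold change 0.26 ± 0.09 (SE), limma adjusted p = 0.0440). Sqle, squalene epoxidase, measured 17.7, 17.1 and 17.0 against 19.1, 21.5 and 21.9 RPKM in the control and KO libraries (log2 fold change 0.25, adjusted p = 0.0157), and Sc5d, the C5 desaturase, 7.35, 7.22 and 8.31 against 8.99, 8.80 and 9.67 RPKM (0.24, adjusted p = 0.0307). In all 5 the lowest KO library lay above the highest control library, as it did for 32.4% of all genes tested. Fdft1, squalene synthase and the entry to the sterol branch, was lower in each KO library, at 8.80, 8.79 and 9.39 against 7.86, 7.12 and 7.79 RPKM (log2 fold change -0.22 ± 0.07 (SE), limma adjusted p = 0.0273), a call lost under 5 of 15 alternatives. The calls of Sc5d and Msmo1 were lost under 6 and 7 of 15. The call of Cyp51 was lost without control library A or Arid1a KO library B (adjusted p up to 0.0650), and that of Sqle without control library C or Arid1a KO library B (up to 0.0576). Lss, the cyclase that forms lanosterol, Tm7sf2, a C14 reductase, Nsdhl and Ebp, which act in C4 demethylation and sterol isomerisation, and Dhcr7, the last reductase of the route through 7-dehydrocholesterol, had log2 fold changes of 0.03, -0.11, 0.08, -0.13 and -0.03 and did not pass. The direction of Lss, Tm7sf2, Ebp and Dhcr7 turned under at least 1 alternative, and Tm7sf2 shares exon sequence with Vps51 on the same strand.

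In Myc-CaP the late sterol step had the highest median of the 4 groups, 0.47, with 3 of 11 genes called, all higher (27.3%, against 4.54% of all genes called higher). Cyp51 measured 37.8 and 38.3 TPM in EV libraries 1 and 2 and 58.3 and 64.6 TPM in Arid1a KO libraries 1 and 2, so that both KO libraries stood well above both EV libraries (log2 fold change 0.68 ± 0.07 (SE), limma adjusted p = 0.0135). Msmo1 measured 63.9 and 66.7 against 87.4 and 98.4 TPM in the EV and KO libraries (log2 fold change 0.50 ± 0.08 (SE), limma adjusted p = 0.0320), and Dhcr7 11.1 and 12.1 against 17.0 and 16.5 TPM (log2 fold change 0.50 ± 0.09 (SE), limma adjusted p = 0.0422). The KO libraries lay above the EV libraries for 9 of the 11 genes and below them for none. Of all genes tested, 24.9% were separated upward and 26.6% downward. Among those that did not pass the test, Tm7sf2 measured 4.78 and 3.33 against 7.20 and 8.72 TPM (log2 fold change 0.84, adjusted p = 0.0746), Hsd17b7 6.23 and 7.27 against 9.99 and 10.3 TPM (0.53, 0.0681), Sqle 59.8 and 69.3 against 82.8 and 96.4 TPM (0.47, 0.0837), Fdft1 7.67 and 7.32 against 9.77 and 9.84 TPM (0.35, 0.115) and Ebp 33.4 and 34.4 against 42.7 and 41.8 TPM (0.31, 0.0581). Lss, Sc5d and Nsdhl had log2 fold changes of 0.15, 0.23 and -0.01. The step summed to 315 to 336 TPM in the EV libraries and 413 to 449.9 TPM in the Arid1a KO libraries, without overlap. Every one of the 6 Myc-CaP calls was lost when any 1 of the 4 libraries was left out, since an arm then held 1 library, assumed to vary like the rest.

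**Figure D2:**
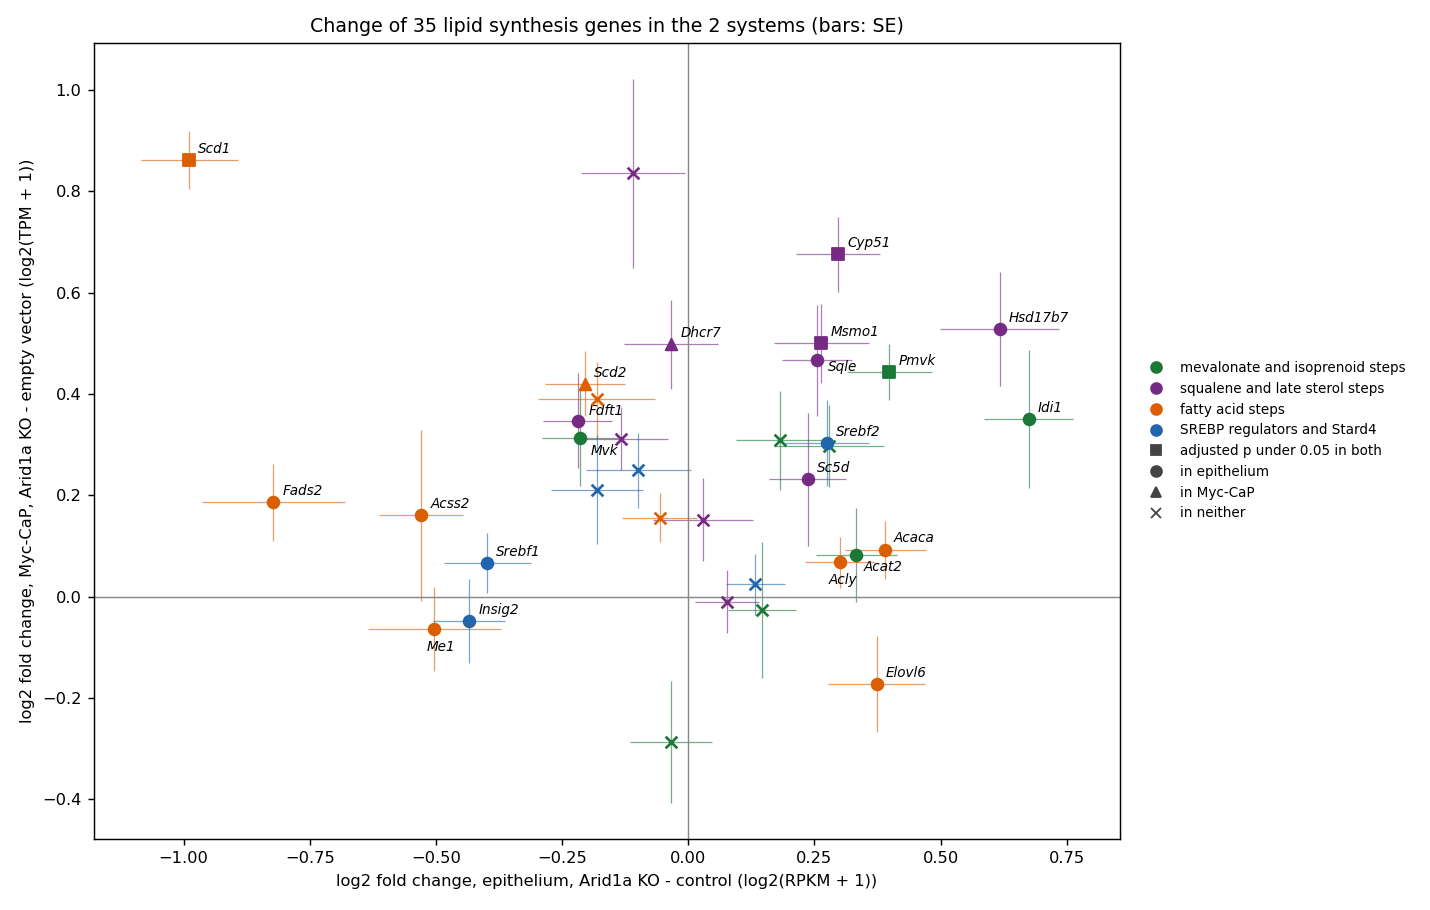
Each point is 1 of the 35 genes, at its log2 fold change in the epithelium (horizontal axis, log2(RPKM + 1)) and in Myc-CaP (vertical axis, log2(TPM + 1)), with bars of 1 SE, coloured by step and with a symbol for the table in which the adjusted p was under 0.05. Pmvk, Cyp51 and Msmo1 are called higher in both, and Scd1 stands alone at the upper left, with -0.99 in the epithelium and 0.86 in Myc-CaP.

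The fatty acid genes changed in both directions in the epithelium. Of 10 genes, 3 rose (Acly, Acaca and Elovl6), 4 fell (Acss2, Me1, Scd1 and Fads2) and 3 did not pass the test, with a median of -0.19. That is 70% called, against 57.1% of all genes tested. Of all genes, 27.5% rose and 29.6% fell. The step's summed level was 291 to 317 RPKM in the control libraries and 252 to 289 RPKM in the Arid1a KO libraries. Values over all genes summed to 441586 to 473250 RPKM in control and 397955 to 402988 RPKM in KO, and the step's sum was not rescaled for this. The median was -0.022 with libraries rescaled to the same sum and -0.35 with a minimum mean of 5. Scd1 (chromosome 19, 44394455 to 44407879), the stearoyl-CoA desaturase that puts the first double bond into palmitate and stearate, measured 36.3, 32.2 and 35.2 RPKM in the controls (A to C) and 14.9, 16.9 and 19.1 RPKM in the Arid1a KO (A to C). Every KO library was below every control library, at about 0.491 of the control mean (log2 fold change -0.99 ± 0.10 (SE), limma adjusted p = 1.60e-04). Fads2 (chromosome 19, 10062765 to 10101746), the delta-6 desaturase of polyunsaturated fatty acids, measured 22.6, 17.7 and 23.4 RPKM in the controls (A to C) and 10.1, 10.7 and 13.9 RPKM in the Arid1a KO (A to C), without overlap (log2 fold change -0.82 ± 0.14 (SE), limma adjusted p = 0.00207). Acss2, which makes acetyl-CoA from acetate, measured 7.48, 7.75 and 6.84 against 4.43, 4.70 and 5.26 RPKM in the control and KO libraries (log2 fold change -0.53 ± 0.08 (SE), limma adjusted p = 0.00135). Me1, malic enzyme, a source of NADPH for fatty acid synthesis, measured 18.0, 20.0 and 18.0 against 11.5, 11.3 and 16.2 RPKM (log2 fold change -0.50 ± 0.13 (SE), limma adjusted p = 0.0135), with KO library C closer to the controls than A and B. With the call still made at an adjusted p under 0.05, these 4 falls were kept under all 15 alternatives. With the study's 1.5-fold taken on log2(RPKM + 1), Acss2 and Me1 were not called. By the ratio of mean RPKM, Acss2 stood at 0.652 of the control, past 1.5-fold, and Me1 at 0.698, short of it.

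Acly, Acaca and Elovl6 rose in the epithelium. Acly, ATP citrate lyase, measured 53.2, 47.1 and 53.0 against 64.9, 60.9 and 63.4 RPKM (log2 fold change 0.30 ± 0.07 (SE), limma adjusted p = 0.00762). Acaca, acetyl-CoA carboxylase, measured 3.88, 3.47 and 4.12 against 5.16, 5.60 and 5.18 RPKM (log2 fold change 0.39 ± 0.08 (SE), limma adjusted p = 0.00469), and its call was lost when a trend on gene length was removed (log2 fold change 0.12). Elovl6, the elongase that turns palmitate into stearate, measured 2.63, 2.10 and 2.68 against 3.56, 3.68 and 3.23 RPKM (log2 fold change 0.37 ± 0.10 (SE), limma adjusted p = 0.0123). For each of these 3 every KO library lay above every control library, as for 32.4% of all genes tested. Fasn, the synthase between Acaca and Elovl6, overlapped, at 26.6, 23.3 and 26.8 against 23.5, 24.4 and 25.7 RPKM (log2 fold change -0.06, adjusted p = 0.537). Scd2, the more abundant desaturase per length in these libraries, measured 130.4, 124 and 127 against 102, 108 and 122 RPKM (-0.21, adjusted p = 0.0585), lower in each KO library but not past the threshold, and Fads1, the delta-5 desaturase, 16.2, 13.6 and 17.4 against 12.2, 13.2 and 15.7 RPKM (-0.18, 0.215). The Scd genes and the Fads genes are families of paralogs, so reads from similar stretches could be lost or assigned to another gene of the family, which was not measured. Adipocytes also express much Scd1 and Fasn. Of the adipocyte markers, Lep was listed at 0 in all 6 libraries and no library exceeded 0.306 RPKM for Adipoq, Plin1, Cidec or Retn, while Fabp4, also made by endothelium and macrophages, measured 12.8 to 13.7 RPKM in the control and 7.71 to 10.3 RPKM in the KO libraries.

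In Myc-CaP, Scd1 and Scd2 were the fatty acid genes that passed the test, both higher. Scd1 measured 60.0 and 62.3 TPM in EV libraries 1 and 2 and 110.1 and 114 TPM in Arid1a KO libraries 1 and 2, 1.83 times the EV mean, without overlap (log2 fold change 0.86 ± 0.06 (SE), limma adjusted p = 0.00451). This was the lowest adjusted p of the 35 genes in Myc-CaP, and its call was kept under all 8 processing alternatives. Scd2 measured 438 and 465 TPM in EV libraries 1 and 2 and 583 and 625 TPM in Arid1a KO libraries 1 and 2 (log2 fold change 0.42 ± 0.06 (SE), limma adjusted p = 0.0306). Fads1 measured 54.2 and 59.2 against 72.1 and 76.9 TPM (log2 fold change 0.39, adjusted p = 0.0511) and Fads2 195 and 174 against 215 and 204 TPM (0.19, 0.249), neither past the threshold. Fasn was the most abundant of the other fatty acid genes and lay slightly higher in both KO libraries, at 367 and 366 against 408 and 409 TPM (0.16, 0.151). Acly, Acaca, Acss2 and Me1 had log2 fold changes of 0.07, 0.09, 0.16 and -0.06, and Elovl6 -0.17, with both KO libraries of Elovl6 below both EV libraries (32.0 and 33.5 against 26.8 and 31.3 TPM). In all, 2 of 10 genes were called, both higher (20%, against 4.54% of all genes called higher). The median was 0.16 and the step summed to 1461 to 1473 TPM in the EV libraries and 1738 to 1792 TPM in the Arid1a KO libraries.

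The 2 SREBP genes moved in opposite directions in the epithelium. Srebf1 (chromosome 11, 60199089 to 60222581), which encodes SREBP-1, measured 55.4, 60.6 and 51.6 RPKM in the controls (A to C) and 39.2, 41.3 and 46.0 RPKM in the Arid1a KO (A to C), lower in every KO library (log2 fold change -0.40 ± 0.09 (SE), limma adjusted p = 0.00577). Srebf2 (chromosome 15, 82147181 to 82205379), which encodes SREBP-2, measured 39.6, 32.2 and 37.6 RPKM in the controls (A to C) and 43.6, 44.2 and 44.8 RPKM in the Arid1a KO (A to C), higher in every KO library (log2 fold change 0.27 ± 0.08 (SE), limma adjusted p = 0.0238), a call lost with the length trend removed and without any 1 of the 3 KO libraries. Insig2, a retention protein of the SREBP-Scap complex, fell from 10.8, 11.8 and 12.4 to 8.32, 8.03 and 8.72 RPKM (log2 fold change -0.43 ± 0.07 (SE), limma adjusted p = 0.00172), while Insig1, its homologue and itself an SREBP target, measured 29.6, 23.2 and 28.3 against 23.3, 27.4 and 24.6 RPKM and overlapped (-0.10, 0.437). Scap, the escort, had a log2 fold change of 0.13 (adjusted p = 0.0880) and Stard4, a sterol carrier, -0.18 (0.125). In Myc-CaP none of the 6 passed the limma test, and 2 (Srebf2 and Insig1) had an unadjusted p under 0.05. Srebf2 measured 72.2 and 64.0 against 87.6 and 80.8 TPM (0.30, 0.120), Insig1 32.3 and 30.3 against 38.6 and 36.2 TPM (0.25, 0.137) and Srebf1 60.4 and 58.9 against 63.9 and 61.1 TPM (0.07, 0.586). Srebf2, Insig1 and Srebf1 each had no overlap between EV and KO, where 24.9% of all genes were separated upward and 26.6% downward. Scap, Insig2 and Stard4 had log2 fold changes of 0.02, -0.05 and 0.21. The median over the 6 genes was -0.14 in the epithelium, where it turned to 0.016 with libraries rescaled to the same sum, and 0.14 in Myc-CaP.

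**Figure D3:**
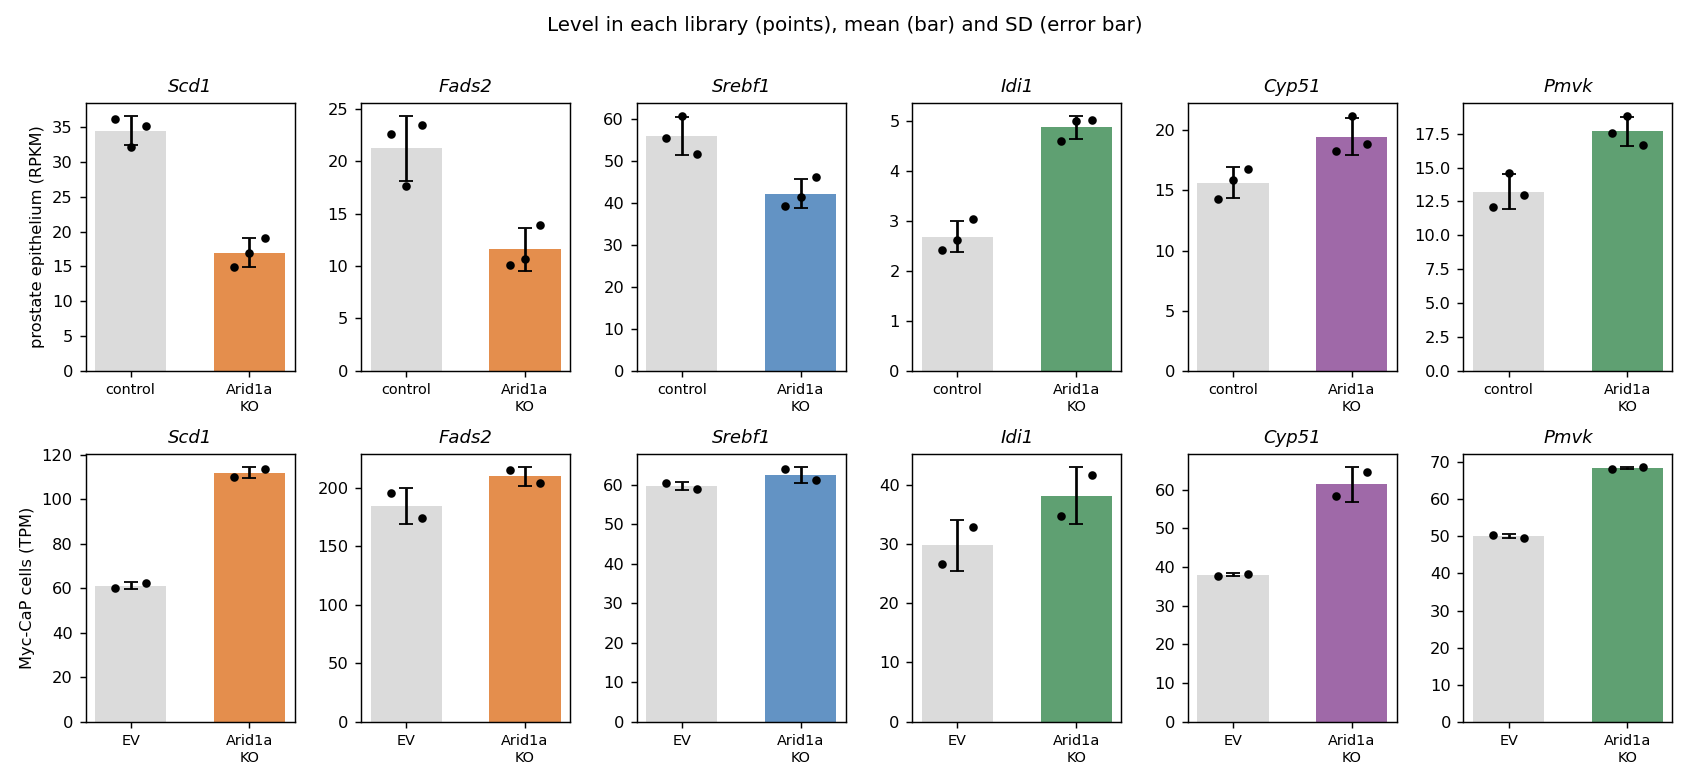
Levels per gene length of 6 genes in each library (points), with the group mean (bar, from 0) and SD (error bar), in RPKM for the epithelium (top) and TPM for Myc-CaP (bottom). Scd1 falls to about 0.491 of the control mean in the epithelium and rises to 1.83 times the EV mean in Myc-CaP, while Idi1, Cyp51 and Pmvk lie higher in the KO libraries of both systems.

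Shares within a library do not depend on how libraries were scaled. Scd1 made up 21.8, 20.6 and 21.7% of the summed Scd1 and Scd2 level in the 3 control libraries and 12.8, 13.5 and 13.6% in the 3 Arid1a KO libraries, a drop from 21.3 ± 0.668% to 13.3 ± 0.463% (SD, n = 3). In Myc-CaP the share rose from 12.0 and 11.8% to 15.9 and 15.4%. Srebf1 made up 58.3, 65.3 and 57.8% of the summed Srebf1 and Srebf2 level in the control epithelium and 47.3, 48.3 and 50.7% in the KO, and 45.5 and 47.9% against 42.2 and 43.1% in Myc-CaP. Insig1 made up 73.2, 66.3 and 69.6% of the Insig pair in the control epithelium and 73.7, 77.3 and 73.8% in the KO, and 66.6 and 64.7% against 71.8 and 68.8% in Myc-CaP. The groups did not overlap in any of these 6 comparisons, but with so few libraries the exact two-sided permutation test cannot go below 0.1 for 3 against 3 or 0.333 for 2 against 2. Those were the values obtained, with Benjamini-Hochberg values over the 6 tests of 0.2 for the epithelium and 0.333 for Myc-CaP.

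The systems share no library, and their tables were normalized separately, so the difference between them was not tested and only the counts are set side by side. Among the 12123 genes tested in both tables, 1.81% were called higher in both. Of the 35 members, 3 were (8.57%): Pmvk, Cyp51 and Msmo1. The groups were separated upward in both tables for 10 members (28.6%, against 8.27% of all genes), namely Pmvk, Idi1, Fdps, Sqle, Cyp51, Msmo1, Hsd17b7, Acly, Acaca and Srebf2. This set holds 7 mevalonate and sterol enzymes, Srebf2, ATP citrate lyase (Acly), whose acetyl-CoA feeds both arms, and acetyl-CoA carboxylase (Acaca). No member was separated downward in both, where 8.99% of all genes were. The groups were separated in opposite directions for 9 members (25.7%, against 19.2% of all genes), of which 8 were lower in the epithelium and higher in Myc-CaP: Mvk, Fdft1, Ebp, Scd1, Scd2, Fads2, Srebf1 and Stard4 (22.9%, against 9.82%). Elovl6 was the reverse, as were 9.43% of all genes. Scd1 was called lower in the epithelium and higher in Myc-CaP, as were 1.77% of all genes.

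Other genes of the same pathways, 44 in 4 lists, were read beside the members. In the epithelium 41 were tested, 12 rose and 16 fell (68.3% called, against 57.1% of all genes), with a median of -0.11. In fatty acid supply, 2 rose and 7 of 11 fell (81.8% called), where 27.5% of all genes rose and 29.6% fell. Thrsp, the Spot 14 protein linked to lipogenesis, measured 2.69 ± 0.335 and 0.275 ± 0.137 RPKM (SD, n = 3) in control and KO (log2 fold change -1.53 ± 0.12 (SE), limma adjusted p = 6.02e-05). Acacb, the mitochondrial acetyl-CoA carboxylase, had -0.56, Mid1ip1, a partner that activates acetyl-CoA carboxylase, -0.44, and the acyl-CoA synthetases Acsl4 and Acsl3 0.30 and 0.25. In elongation and desaturation, 4 of 11 tested rose and 5 fell (81.8% called). Hacd2, a dehydratase of the elongation cycle, measured 13.5 ± 0.602 and 6.64 ± 1.24 RPKM (SD, n = 3) (log2 fold change -0.94 ± 0.12 (SE), limma adjusted p = 4.66e-04), Elovl7, an elongase, had -0.91 and Tecr, the reductase that closes the cycle, -0.58. Hacd4, Hsd17b12, the ketoreductase of the cycle, and Elovl5, the elongase of polyunsaturated chains, had 0.45, 0.44 and 0.39. The largest changes among the 44 besides Thrsp were in sterol handling, where 5 of 12 rose and 2 fell (58.3% called, near the 57.1% of all genes).

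Npc1, which exports cholesterol from lysosomes, measured 11.5 ± 2.14 and 27.1 ± 1.69 RPKM (SD, n = 3) in control and KO (log2 fold change 1.18 ± 0.13 (SE), limma adjusted p = 2.44e-04). Soat1, the enzyme that esterifies cholesterol, measured 7.29 ± 0.182 and 17.7 ± 1.32 RPKM (SD, n = 3) (log2 fold change 1.17 ± 0.07 (SE), limma adjusted p = 2.84e-05). Lbr, a sterol C14 reductase of the nuclear envelope that shares its reaction with Tm7sf2, rose by 0.68. Soat1 and Npc1 are abundant in macrophages, whose 6 markers were all higher in the same libraries, and the part of that difference in these rises was not tested. Mylip, a ubiquitin ligase and target of the sterol-sensing LXR receptors, had -0.70 and Mbtps1, the site-1 protease that cleaves SREBPs, -0.35. In the isoprenoid branch Nus1, a subunit of the enzyme that makes dolichol, rose by 0.54, the farnesyltransferase subunits Fnta and Fntb had -0.31 and -0.30, and the other 4 of 7 did not pass (42.9% called, against 57.1% of all genes). In Myc-CaP 39 of the 44 were tested and 2 were called (5.13%, against 6.43% of all genes). Acsl1, a long-chain acyl-CoA synthetase, measured 22.2 ± 0.418 and 40.1 ± 1.85 TPM (SD, n = 2) with EV and KO (log2 fold change 0.83 ± 0.07 (SE), limma adjusted p = 0.00726), and Fads3, a desaturase homologue, 52.2 ± 2.80 and 39.2 ± 0.0226 TPM (SD, n = 2) (log2 fold change -0.40 ± 0.07 (SE), limma adjusted p = 0.0379). Soat1, Npc1 and Lbr had log2 fold changes of -0.21, -0.03 and -0.01 there and did not pass the test.

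**Figure D4:**
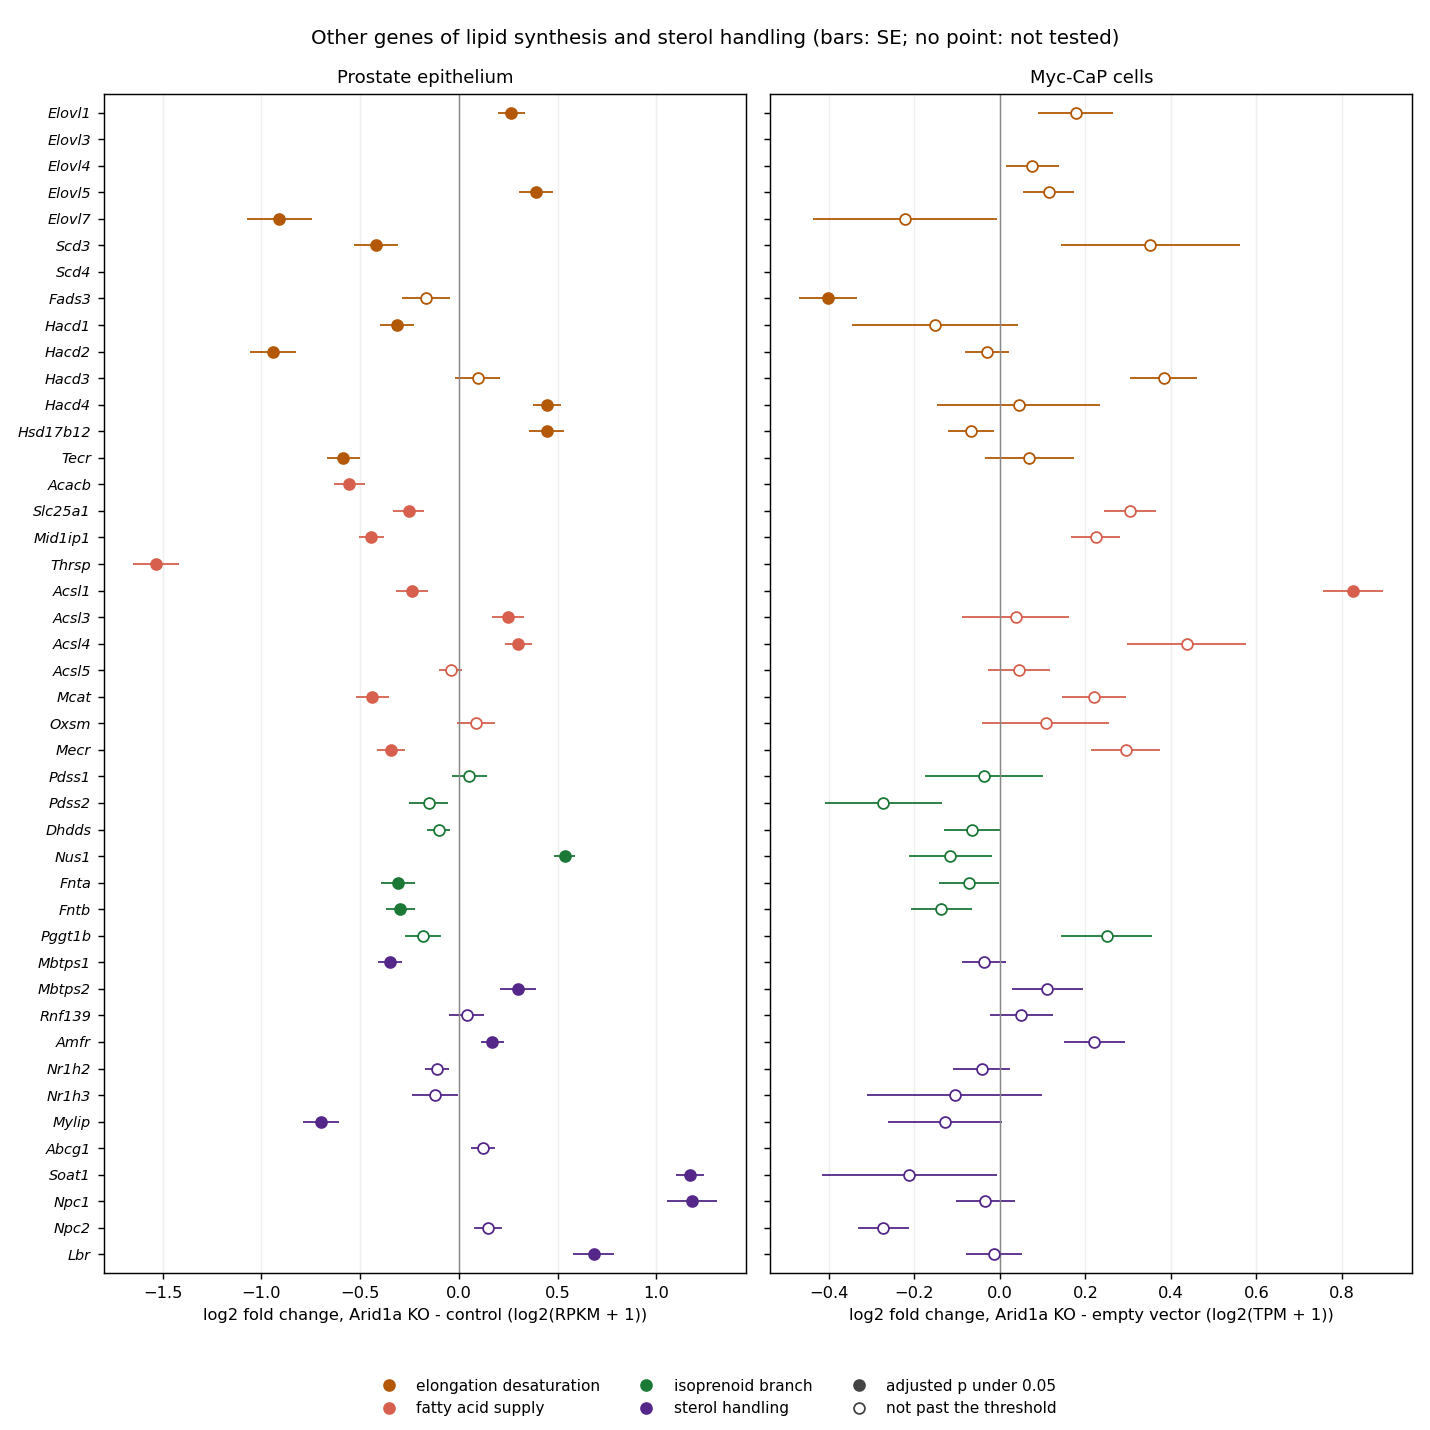
Log2 fold changes (Arid1a KO minus control on log2(RPKM + 1), left, or minus EV on log2(TPM + 1), right) with bars of 1 SE for 44 further genes, coloured by list. Filled points passed an adjusted p of 0.05, open points did not and genes without a point were not tested. Thrsp, at -1.53, and Npc1 and Soat1, at 1.18 and 1.17, are the extremes in the epithelium, and Acsl1, at 0.83, is the extreme in Myc-CaP.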

How the data were processed

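RNA-seq libraries from sorted prostate epithelium (3 control, 3 Arid1a KO) and Myc-CaP cells (2 EV, 2 Arid1a KO) were grouped by the genotype in the sample labels. An allele that both epithelium groups carry is not reported here. The authors deposited the epithelium as RPKM and the Myc-CaP libraries as TPM. According to the study's methods, paired-end reads were mapped to GRCm38 with TopHat2 and counted with HTSeq-count, whereas the submitters' processing notes name HISAT2, HTSeq, DESeq2 and mm10, and which of these made the deposited values is not given in the sources used here. The gene lengths behind both units are not given either. The 10 per-sample tables held the same values as the series tables, and 27 of 48897 rows carried a date in place of a symbol. The study tested counts with DEGseq, which the deposited units do not allow.

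Values were transformed to log2(value + 1), which understates the change of low genes, and a test was run where a gene's mean in the table reached 0.5. A 1.5-fold change was counted on the same scale. The tables were fitted separately in R 4.3.3 with limma 3.58.1 (lmFit, eBayes with a trend, 2 groups, no covariate). Two-sided p-values received Benjamini-Hochberg adjustment across every gene tested in the table, and calls were made at an adjusted p under 0.05. Non-overlap means that every KO library lay beyond every control library. The procedure was tested on simulated data. Depth was estimated from the steps between low RPKM values, but at most 15.3% of low values gave whole reads (within 0.02), so reads were not recovered and no count test was run. Coordinates came from GENCODE M21 and promoters from RefSeq (GRCm38.p6).

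The 35 genes, the lists of 44 other pathway genes and of cell type markers, and the rule for naming were chosen with earlier results of these data known. Values per library were given for members called with a 1.5-fold change or in opposite directions, and for other members of each step; of the other pathway genes, up to 3 called genes with the largest change per direction, list and table were named. The alternatives were a pseudocount of 0.1, no filter, a minimum mean of 5, no trend in eBayes, quantile normalization, the same sum per library (RPKM), median-of-ratios scaling, removal of a trend on gene length (lowess, span 0.3), a replicate block, the study's thresholds and leaving out each library.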

Additional observations from a re-analysis of the deposited data

Results flagged for a closer look

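A set of 9 genes was singled out because every Arid1a KO library moved one way from the controls in the epithelium and the opposite way in Myc-CaP. For all 9 the difference between the systems was not tested, since the tables were normalized separately, and 19.2% of all genes tested in both showed the same pattern. Log2 fold changes are given first for the epithelium and then for Myc-CaP. In the sterol arm, Mvk had -0.21 and 0.31, Fdft1 -0.22 and 0.35 and Ebp -0.13 and 0.31. Among the fatty acid genes, Scd1 had -0.99 and 0.86, Scd2 -0.21 and 0.42, Fads2 -0.82 and 0.19, and Elovl6 0.37 and -0.17. Among the regulators, Srebf1 had -0.40 and 0.066 and Stard4 -0.18 and 0.21. Only Scd1 passed the adjusted threshold in both tables. The direction of Ebp in the epithelium turned when libraries were rescaled to the same sum and when a trend on gene length was removed. In the epithelium, seminal vesicle, macrophage and B cell markers moved with the same label, and their part in these values was not tested.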

How the results depend on the processing

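In the epithelium, 12 of the 20 calls were kept in every alternative that keeps the adjusted p threshold, and in Myc-CaP 0 of 6, though Scd1 was kept in all 8 of these that leave no library out. The cause of these changes was not tested except where fewer libraries or genes enter. By the study's thresholds, 2 members were higher and 2 lower in the epithelium and 3 higher in Myc-CaP. The 1.5-fold was taken there on log2(value + 1). Leaving out 1 library gave 7 to 13 members higher and 6 to 8 lower in the epithelium, the 7 without Arid1a KO library B, and 0 higher in Myc-CaP for each of the 4 libraries by limma, where the lone library of an arm is assumed to vary like the others; the other pathway genes then also gave 0 calls in either direction. Counts at an unadjusted p in those fits had no matching count over all genes and were not read. In the epithelium, a minimum mean of 5 gave 9 other pathway genes lower and a fatty acid median of -0.35. Rescaling to the same sum gave 10 other pathway genes lower and medians of 0.40 (mevalonate), 0.24 (late sterol), -0.022 (fatty acid) and 0.016 (regulators), and turned Ggps1 (0.10), Tm7sf2 (0.052), Ebp (0.037), Dhcr7 (0.12), Fasn (0.12) and Insig1 (0.072). Removing the length trend gave medians of 0.35 (mevalonate) and 0.20 (late sterol) and turned Lss (-0.16), Ebp (0.056) and Insig1 (0.023). Medians without 1 library ran from 0.19 to 0.29, 0.05 to 0.12, -0.28 to -0.13 and -0.21 to -0.10 in the same order, and the values that turned ran from -0.073 to 0.017 (Ggps1), -0.027 to 0.12 (Lss), -0.19 to 0.0018 (Tm7sf2) and -0.12 to 0.018 (Dhcr7). Arid1a in the epithelium passed the threshold with a minimum mean of 5 (0.25), quantile normalization (0.27), the same sum (0.42), median-of-ratios scaling (0.27) and the replicate block (0.25), and ran from 0.15 to 0.32 without 1 library. In Myc-CaP, members called higher were 3 with no filter, 1 with no trend and 10 with the length trend removed. Over all genes, these settings called 284 of 25200, 359 of 13974 and 761 of 11951 higher. Other pathway genes called higher were 3 with a minimum mean of 5, 2 with quantile normalization, 2 with median-of-ratios scaling and 3 with the length trend removed, and those called lower were 0 with no filter, no trend or median-of-ratios scaling. The fatty acid median was 0.17 with a pseudocount of 0.1, and the regulator median 0.12 with quantile normalization and 0.15 with median-of-ratios scaling or the length trend removed. Median-of-ratios scaling turned Nsdhl (0.00045). Without 1 library, the Myc-CaP medians ran from 0.21 to 0.27 (mevalonate), 0.36 to 0.53 (late sterol), 0.11 to 0.15 (fatty acid) and 0.10 to 0.13 (regulators), Arid1a from -0.61 to -0.58, and the values that turned from -0.0076 to 0.17 (Acat2), -0.19 to 0.13 (Mvd), -0.047 to 0.026 (Nsdhl), -0.14 to 0.011 (Me1) and -0.10 to 0.0056 (Insig2). Samples share only a letter or number: same-lettered deviations correlated at 0.041, 0.0094 and -0.057 in the epithelium, where differently lettered ones ran from -0.083 to 0.078. The same-numbered value in Myc-CaP was 0.195. Both pairs must give this value where a group holds 2 libraries, so it counts as 1 observation. With the replicate block, 13 members were higher and 7 lower in the epithelium, where 4205 of all 16275 genes were higher and 4618 lower. In Myc-CaP the block gave 20 members higher and none lower, with 7 other pathway genes higher and 2 lower. Over all 13974 genes in Myc-CaP it gave 1453 higher and 1318 lower, against 635 and 264 without it. TPM keeps no absolute depth, so no detection limit can be set for Myc-CaP.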
